A study of Mus musculus with 12 samples.

Results

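The interleukin 1 (IL-1) and interleukin 18 (IL-18) receptor family was followed across 5 sorted populations of mouse CD4+ T cells. The family was listed as 7 genes, Il1r1, Il1r2, Il1rap, Il1rn, Il1rl1, Il18r1 and Il18rap, and its members were taken as every probe set that the array annotation gives to one of them. That gave 14 probe sets for 6 of the 7 genes, out of 18194 genes with a probe set of their own symbol, and Il1rl1 was not analysed here. The family was chosen by the measured values of Il1r1, Il1r2 and Il18rap, which separate the groups, so their values are described with no test. Il1rap, Il1rn and Il18r1 entered as relatives of those 3 genes and were tested.

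The cells came from mice carrying the S1pr2V/+ reporter allele, in which the fluorescent protein Venus marks expression of the sphingosine-1-phosphate receptor gene S1pr2. The sorts were made 10 days after subcutaneous immunization with CGG in CFA (an antigen in an oil adjuvant), and each of the 12 arrays held the pooled cells of 2 to 6 mice. All sorts took CD4+ cells free of the lineages in a Dump gate. From lymph node came Venus-high follicular helper T cells (Tfh, 3 arrays) and Venus-low Tfh (3 arrays), both CXCR5+ PD1-high CD44-high. The same tissue gave PD1-intermediate T helper cells (Th, 2 arrays), CXCR5+ and CD44-high, and PD1-low Th cells (2 arrays), CXCR5-low and CD44-high. Naive CD4+ T cells (2 arrays), CD44-low and CD62L-high, came from spleen, so tissue and naive state cannot be told apart in any comparison with them. The sample labels call their donors immunized, while the series text speaks of immunized or control mice.

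Cytokines of the IL-1 family act through paired receptor chains. IL-1 binds Il1r1, which then recruits the accessory chain Il1rap, and this pair signals through the adaptor Myd88 and kinases of the Irak family to NF-kB. Il1r2 binds IL-1 but lacks a signalling domain and acts as a decoy, while Il1rn is a secreted antagonist that occupies Il1r1. IL-18 is bound by Il18r1 and signals once Il18rap has joined. In T helper cells, IL-1 is best known for supporting Th17 cells and IL-18 for supporting interferon gamma production by Th1 cells.

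Il1r2, Il1r1, Il18r1 and Il18rap lie in one cluster on mouse chromosome 1, with Il1rl2 and Il1rl1 as the other protein-coding genes between Il1r2 and Il18rap in the RefSeq annotation of GRCm38.p6. Il1rn lies on chromosome 2 and Il1rap on chromosome 16. The 250 bases before the transcript starts are shown for the clustered genes that carry the patterns below, Il1r2 and Il1r1 because they moved together and Il18r1 and Il18rap because both were lowest or near lowest in Venus-high Tfh. All lie on the + strand and are taken from RefSeq, build GRCm38.p6. Capitals mark matches to a motif.
Il1r2, chr1:40085843-40086092: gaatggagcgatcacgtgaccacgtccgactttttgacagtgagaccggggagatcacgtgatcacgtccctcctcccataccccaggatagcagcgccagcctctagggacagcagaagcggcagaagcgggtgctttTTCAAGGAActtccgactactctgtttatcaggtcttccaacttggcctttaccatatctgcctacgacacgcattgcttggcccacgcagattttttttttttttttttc
Il1r1, start 1, chr1:40224830-40225079: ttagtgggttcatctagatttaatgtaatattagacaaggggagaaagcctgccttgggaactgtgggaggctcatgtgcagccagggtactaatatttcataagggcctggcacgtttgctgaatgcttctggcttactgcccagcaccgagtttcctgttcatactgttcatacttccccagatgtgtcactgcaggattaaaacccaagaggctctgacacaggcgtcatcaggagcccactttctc
Il1r1, start 2, chr1:40266336-40266585: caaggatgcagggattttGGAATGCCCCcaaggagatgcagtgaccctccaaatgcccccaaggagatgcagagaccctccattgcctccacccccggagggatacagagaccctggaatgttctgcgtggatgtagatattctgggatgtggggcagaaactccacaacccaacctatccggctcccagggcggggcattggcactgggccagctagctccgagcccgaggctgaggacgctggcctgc
Il18r1, start 3, chr1:40465756-40466005: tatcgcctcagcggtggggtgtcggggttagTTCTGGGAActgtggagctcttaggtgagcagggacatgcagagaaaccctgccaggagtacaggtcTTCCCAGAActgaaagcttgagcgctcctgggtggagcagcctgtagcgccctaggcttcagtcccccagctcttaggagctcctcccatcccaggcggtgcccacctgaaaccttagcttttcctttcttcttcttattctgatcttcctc
Il18rap, chr1:40515112-40515361: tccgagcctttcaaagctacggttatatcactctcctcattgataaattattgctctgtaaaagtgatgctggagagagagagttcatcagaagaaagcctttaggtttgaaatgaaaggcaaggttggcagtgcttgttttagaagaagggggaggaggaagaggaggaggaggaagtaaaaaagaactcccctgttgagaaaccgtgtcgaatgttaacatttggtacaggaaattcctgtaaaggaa

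The windows were searched on both strands for TGACTCA (the AP-1 motif), TTCNNNGAA (STAT), AGGTCA (ROR), GGTGTGA (T-box), AGATAA as bound by factors of the GATA family, and the NF-kB consensus, and on the gene's strand for TATAAA. No searched motif overlapped another in the windows printed. A STAT match, TTCAAGGAA, stood 111 bases before the start of Il1r2. Start 3 of the 3 listed for Il18r1 had 2 STAT matches, TTCTGGGAA at 219 and TTCCCAGAA at 152 bases before it, and start 2 of Il1r1 had an NF-kB match on the opposite strand. The windows of Il18rap, of start 1 of Il1r1 and of starts 1 and 2 of Il18r1 (these last not printed) held none of the 7 motifs. Among all 32851 promoter windows of this length, 7.02% held the STAT motif and 3.9% the NF-kB consensus, against 4.46% for AP-1, 14% for ROR, 3.33% for T-box, 9.99% for GATA and 7.59% for TATAAA. These matches describe letters only and say nothing about binding.

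Signals are on the log2 scale, as deposited, and 17901 probe sets entered the tests, those that read log2 5 or more on 2 arrays at the least. Of the 14 family probe sets 6 passed, 1 for each measured gene, and the 8 others stayed below log2 5 on all 12 arrays. Those 8 were the second probe sets of Il1r1 (2.17 to 2.25) and Il18rap (2.09 to 4.53), 4 of the 5 of Il1rap (none above 4.41) and 2 of the 3 of Il1rn (none above 3.07). Each gene's account therefore rests on 1 probe set. The second probe set of Il18rap had means of 3.47 in Venus-low Tfh, 2.70 in PD1-intermediate cells and 2.10 to 2.19 in the 3 other groups, all below log2 5. Levels of different probe sets cannot be set against each other, so that the amount of decoy relative to signalling receptor is not known from these arrays.

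**Figure D1:**
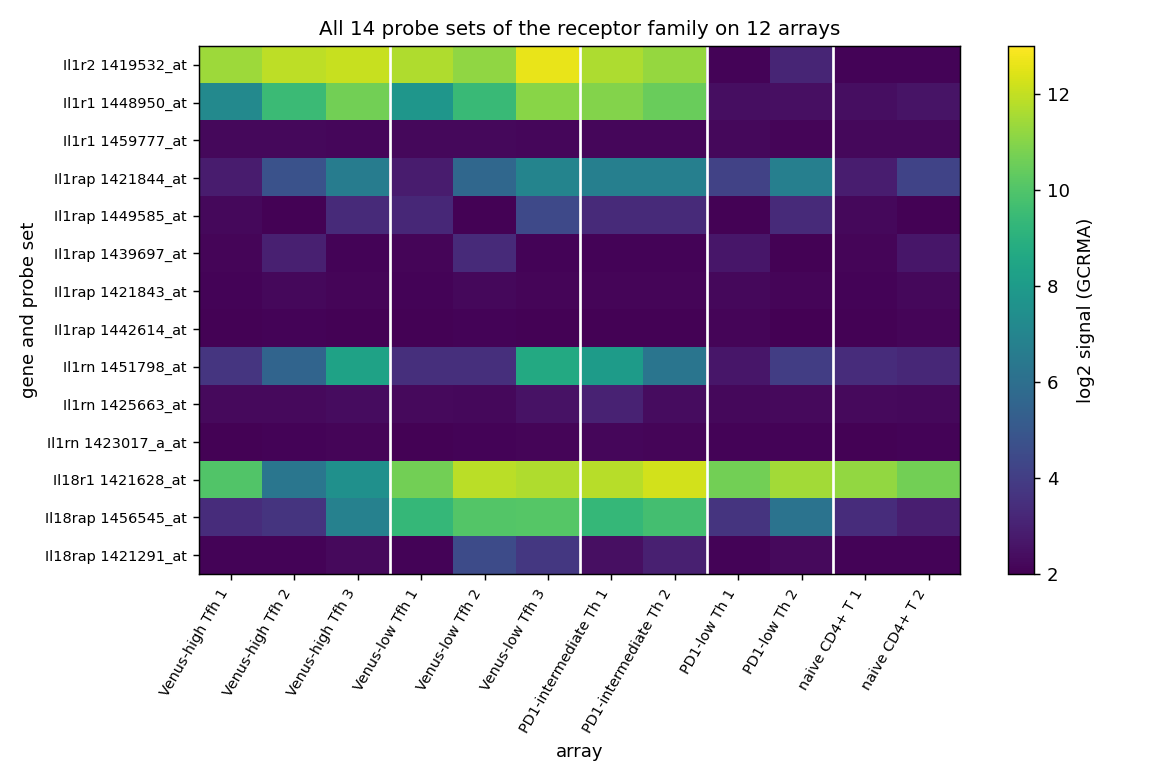
Log2 signal of the 14 probe sets of the 6 measured family genes (rows) on each of the 12 arrays (columns, white lines between groups); the colour scale runs from 2 to 13. A single row is bright for Il1r2, Il1r1, Il18r1 and Il18rap, and 8 rows stay below log2 5 throughout.

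By the quantiles of their values the arrays were divided into 3 sets that the labels do not name. Set 1 held Venus-high 1, Venus-low 1 and naive 1, set 2 held Venus-high 2, Venus-low 2, PD1-low 1 and naive 2, and set 3 held Venus-high 3, Venus-low 3, both PD1-intermediate arrays and PD1-low 2. The 75% quantiles were 8.50 to 8.55 in set 1, 8.68 to 8.76 in set 2 and 9.39 to 9.42 in set 3. Displaced probe sets, those whose set effect stood over 3 log2 units above or below both other sets, numbered 3315 in set 2, against 542 in set 1 and 234 in set 3. The Il1rn probe set was 1 of those in set 3, and no other family probe set that passed the filter was among them. Both Tfh groups have an array in each set, so values within sets are given beside the group means. The array sets differ between the other groups, and only set 3 holds PD1-intermediate arrays. All 7 measured T cell genes reached log2 5 in every group. Their summed log2 level was 96.2 to 99.3 in Venus-high, 96.5 to 99.0 in Venus-low, 99.4 in PD1-intermediate, 95.5 to 98.5 in PD1-low and 94.9 to 96.1 in naive cells. In pooled cells, fewer positive cells and less RNA per cell cannot be told apart.

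Il1r2, the decoy receptor of IL-1, was present in every CXCR5+ group and near the lowest readings of the array in both others. It read 11.41, 11.90 and 12.06 in Venus-high Tfh, 11.68, 11.19 and 12.64 in Venus-low Tfh, and 11.63 and 11.24 in PD1-intermediate cells. In PD1-low cells it read 2.12 and 3.13, and in naive cells 2.12 and 2.12. The 8 CXCR5+ arrays thus lay between 11.19 and 12.64 and did not overlap with the other 4 arrays. Taking log2 5 as the level below which a signal gives only a bound, the bound for Il1r2 was 86.7-fold or more between PD1-intermediate and PD1-low cells, and 110-fold or more between Venus-high Tfh and PD1-low cells. These bounds describe the values that chose the gene. Among the 3 CXCR5+ groups the means ± SD were 11.79 ± 0.34 (Venus-high, n = 3), 11.84 ± 0.74 (Venus-low, n = 3) and 11.44 ± 0.27 (PD1-intermediate, n = 2). The readings of the 3 groups overlapped, and Venus-low minus PD1-intermediate was 0.40 over all arrays. On like arrays, in set 3, Venus-low read 1.20 above the PD1-intermediate mean, and with the array set as a term the difference was 0.97 ± 0.31 (SE), described with no test. Between the Tfh groups the difference was -0.27, 0.70 and -0.58 in sets 1, 2 and 3, so that no direction was shared by the pairs.

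Il1r1, the signalling receptor for IL-1, had the same on and off pattern between the groups, with a much wider spread inside the Tfh groups. It read 7.19, 9.51 and 10.68 in Venus-high Tfh, 7.79, 9.45 and 11.02 in Venus-low Tfh, and 10.94 and 10.49 in PD1-intermediate cells. In PD1-low cells it read 2.40 and 2.47, and in naive cells 2.40 and 2.57. The lowest CXCR5+ array was 7.19 and the highest other array 2.57, so the groups did not overlap. The bound was at least 52.4-fold for PD1-intermediate over PD1-low cells and at least 17.5-fold for Venus-high Tfh over PD1-low cells. Within the Tfh groups the level went with the array set, from 7.19 and 7.79 in set 1 to 9.51 and 9.45 in set 2 and 10.68 and 11.02 in set 3. Venus-high minus Venus-low was -0.60, 0.06 and -0.35 within sets 1, 2 and 3. With the array set as a term it was -0.295 ± 0.47 (SE), described with no test. The SD of 1.77 and 1.62 in the 2 Tfh groups (n = 3 each) includes the differences between sets. In set 3, where PD1-intermediate cells can be compared with Tfh on like arrays, Venus-low exceeded their mean by 0.31. Over all arrays the Tfh means were 9.13 and 9.42, against 10.71 in PD1-intermediate cells, which have arrays in set 3 only. Venus-low minus PD1-intermediate was -1.29 over all arrays and 0.01 ± 0.59 (SE) with the array set as a term, described with no test. The part of the sets in the order of these means was not tested.

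Over the 12 arrays Il1r1 and Il1r2 had a Pearson r of 0.956 and a Spearman rho of 0.853. Both describe arrays that share sets and groups and that fall into a high and a low cluster, which is also how these genes were chosen. Their pattern was set beside all 15769 probe sets that passed the filter, carried 1 symbol and were not displaced in an array set. The 5 most like Il1r2 by Pearson r over the 12 arrays were those of Trpm6 (0.999), a magnesium channel, Il21 (0.995), the cytokine that Tfh cells secrete, H2-Q2 (0.995), an MHC class I gene, Cela1 (0.994), an elastase, and Smtn (0.993), which encodes a cytoskeletal protein. Il21 read 10.63 to 12.61 on the 8 CXCR5+ arrays and 2.39 to 2.68 on the 4 others. The 5 most like Il1r1 were those of Mettl7a1 (0.979), Rnase4 (0.979), Frmd4b (0.978), Marcks (0.977) and Ctnnbip1 (0.977). Marcks, a substrate of protein kinase C, read 6.30 to 9.26 in Venus-high Tfh, 6.45 to 9.74 in Venus-low Tfh and 9.94 to 10.63 in PD1-intermediate cells, a spread like that of Il1r1 itself.

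Cells outside the T lineage that carry IL-1 receptors were looked for by their markers. Of 7 measured neutrophil genes, 5 (S100a8, Csf3r, Cxcr2, Ngp and Camp) were below log2 5 on all 12 arrays. S100a9 read 5.08 and 6.30 in naive cells and reached 5.33 on 1 Venus-high and 5.08 on 1 PD1-low array. Mmp9 reached 5.11 on 1 PD1-intermediate array. The summed log2 level of this list was 15.0 to 18.4 on the lymph node arrays and 19.1 to 21.5 on the naive arrays. Of 8 measured monocyte, macrophage and dendritic cell genes, 7 were below log2 5 on all 12 arrays, Lyz2 and Csf1r among them. The exception was Cd68, with means of 9.10 in Venus-high Tfh, 8.49 in Venus-low Tfh, 6.51 in PD1-intermediate, 5.19 in PD1-low and 3.97 in naive cells, and its part in the Il1r1 and Il1r2 pattern was not tested. The list summed to 23.8 to 25.2 on the Tfh arrays and 19.9 to 23.9 on the others. Of 6 mast cell and basophil genes, 5 were below log2 5 on every array, with Kit at 7.04 on 1 Venus-low array as the exception (list sum 12.7 to 17.6 over all arrays). Of 4 measured B cell genes, Cd79a and Ms4a1 were below log2 5 on all 12 arrays. The B cell list summed to 20.0 to 23.1 on the CXCR5+ arrays, 14.8 to 17.6 in PD1-low and 10.1 to 10.8 in naive cells. Cd22, an inhibitory receptor known from B cells, had means of 12.51 in Venus-high, 11.52 in Venus-low, 9.72 in PD1-intermediate, 3.98 in PD1-low and 2.78 in naive cells. The list sum thus moved with Il1r1 and Il1r2 across the groups, but of its genes Cd22 alone followed them. Cd79b had means of 3.20 in Venus-high, 5.05 in Venus-low, 6.665 in PD1-intermediate, 7.41 in PD1-low and 2.71 in naive cells. Its highest mean was thus in PD1-low cells, where Il1r1 and Il1r2 were low. The part of the B cell genes in the Il1r1 and Il1r2 pattern was not tested.

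**Figure D2:**
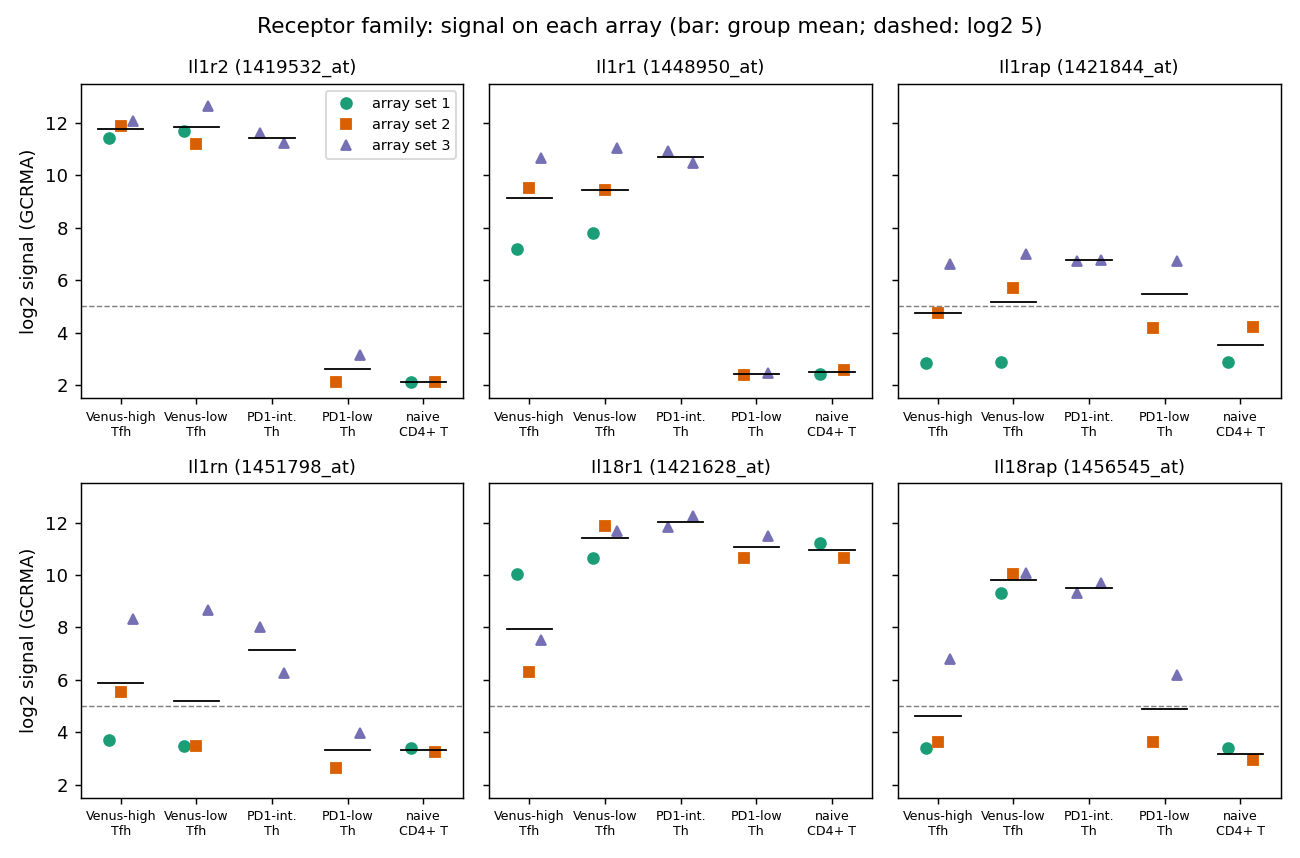
Log2 signal of the 1 probe set per gene that passed the filter (vertical axis) on every array, by group (horizontal axis); colour and marker give the array set, short bars the group means and the dashed line log2 5. Il1r2 and Il1r1 are high in the 3 CXCR5+ groups, Il18rap in Venus-low and PD1-intermediate cells, Il18r1 is lowest in Venus-high Tfh, and Il1rap and Il1rn step with the array set.

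Il1rap, the accessory chain shared by the receptors of several IL-1 family cytokines, had no level that could be tied to a group. It read 2.85, 4.75 and 6.61 in Venus-high Tfh, 2.86, 5.69 and 6.98 in Venus-low Tfh, 6.75 and 6.76 in PD1-intermediate, 4.18 and 6.75 in PD1-low and 2.86 and 4.21 in naive cells. Ordered by array set instead, the values were 2.85 to 2.86 in set 1, 4.18 to 5.69 in set 2 and 6.61 to 6.98 in set 3, with no overlap between sets, and 6 of the 12 arrays reached log2 5. None of the 6 comparisons was called (limma adjusted p from 0.668 to 1.00). With the array set as a term the adjusted p was 0.375 to 0.977. Venus-high minus Venus-low was -0.01, -0.94 and -0.38 within the sets (mean -0.44 ± 1.27, SE). With the array set as a term the SE was 0.29 (limma adjusted p = 0.375), and all 3 pairs were negative, so these values do not show that the groups have equal amounts.

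Il1rn, the secreted antagonist of Il1r1, was read mainly on set 3 arrays. It read 3.70, 5.55 and 8.34 in Venus-high Tfh, 3.46, 3.47 and 8.68 in Venus-low Tfh, and 8.02 and 6.26 in PD1-intermediate cells, against 2.65 and 3.98 in PD1-low and 3.42 and 3.23 in naive cells. Within set 3 the 4 CXCR5+ arrays read 6.26 to 8.68 and the PD1-low array 3.98. In sets 1 and 2 the only array at or above log2 5 was Venus-high 2, at 5.55. None of the 6 comparisons was called (limma adjusted p from 0.595 to 1.00). With the array set as a term, Venus-high minus PD1-low was 3.39 ± 0.91 (SE, limma adjusted p = 0.0313), where 28.7% of all probe sets were called. Within sets this difference was 2.90 in set 2 and 4.36 in set 3. The same term left the other 5 comparisons uncalled (adjusted p from 0.282 to 0.839). As a probe set displaced in set 3, Il1rn has a set effect that this term assumes to be equal in all groups, while its PD1-low array in set 3 read 3.98.

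Il18r1, the chain that binds IL-18, was present in all 5 groups, naive cells included, and lowest in Venus-high Tfh. It read 10.03, 6.30 and 7.53 in Venus-high Tfh and 10.64, 11.88 and 11.68 in Venus-low Tfh. The PD1-intermediate arrays read 11.82 and 12.24, the PD1-low arrays 10.66 and 11.48 and the naive arrays 11.21 and 10.67. All 3 Venus-high arrays were below every one of the 9 others, and Venus-high 1 lay only 0.61 under the next. The share of all probe sets that separate these arrays is not given here, so no weight is put on that separation. The group means (± SD) in order were 7.95 ± 1.90 in Venus-high Tfh, 10.94 ± 0.38 in naive, 11.07 ± 0.58 in PD1-low, 11.40 ± 0.67 in Venus-low and 12.03 ± 0.30 in PD1-intermediate cells, with n = 3 for each Tfh group and 2 for the others. From naive to Venus-low, neighbours differed by less than their SD.

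Venus-high minus Venus-low Tfh was -3.45 ± 0.84 (SE) for Il18r1, which was not called (limma adjusted p = 0.173). In this comparison 0.609% of the tested probe sets were called. The pairs within sets 1, 2 and 3 differed by -0.61, -5.58 and -4.15, the same direction in 3 of 3 but of unequal size. The result turned on Venus-high replicate 1. Without that array the difference was -4.48 (limma adjusted p = 0.0186), and without each of the other 11 arrays in turn it was not called. With the array set as a term the size was the same and the adjusted p was 0.0404, in a fit that called 11.6% of all probe sets for this comparison, and with the replicate number as a block over the 6 Tfh arrays the adjusted p was 0.150. Over 24 alternatives the adjusted p ranged from 0.0186 to 0.664.

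Against PD1-low cells Il18r1 differed by -3.12 ± 0.94 (limma adjusted p = 0.0963), and against naive cells by -2.99 ± 0.94 (limma adjusted p = 0.0979), neither of them called. The rates over all probe sets were 7.62% and 9.52% in those comparisons. Both were called without Venus-high replicate 1, at -4.15 (limma adjusted p = 0.00583) and -4.02 (limma adjusted p = 0.00519). Both were also called with the array set as a term (limma adjusted p = 0.0359 and 0.0478), where 28.7% and 34.3% of all probe sets were. Within sets the differences from PD1-low cells were -4.36 in set 2 and -3.95 in set 3, and those from naive cells -1.18 in set 1 and -4.36 in set 2. The 2 comparisons share the Venus-high arrays and are not independent of each other.

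Il18rap, the accessory chain that completes the IL-18 receptor, was high in Venus-low Tfh and PD1-intermediate cells and low in Venus-high Tfh. It read 3.38, 3.64 and 6.82 in Venus-high Tfh, 9.32, 10.04 and 10.10 in Venus-low Tfh, and 9.31 and 9.70 in PD1-intermediate cells. PD1-low cells gave 3.64 and 6.17 and naive cells 3.38 and 2.93. The 5 Venus-low and PD1-intermediate arrays lay between 9.31 and 10.10, and none of the 7 others exceeded 6.82. The 2 intermediate readings, 6.82 in Venus-high 3 and 6.17 in PD1-low 2, were both in array set 3. In set 2, Venus-high and PD1-low cells had an identical value of 3.64. Within the sets, 7.27% of all values below log2 5 and 7.55% of those at or above it were shared by arrays.

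Described with no test, Il18rap in Venus-high minus Venus-low Tfh was -5.21 ± 0.95 (SE), and -5.93, -6.40 and -3.28 within sets 1, 2 and 3. PD1-intermediate minus PD1-low was 4.60 ± 1.16 (SE), with 3.33 in set 3 and 5.86 without PD1-low replicate 2. Venus-low minus PD1-intermediate was 0.32 ± 1.06 (SE). That difference was 0.59 in set 3 and 1.69 ± 0.74 (SE) with the array set as a term. At the bottom of the order, naive (3.16 ± 0.32, SD, n = 2), Venus-high (4.61 ± 1.91, SD, n = 3) and PD1-low cells (4.91 ± 1.79, SD, n = 2) overlapped or lay within that spread. The 2 IL-18 receptor chains thus differed in their patterns across the groups. Il18r1 in naive and PD1-low cells (10.66 to 11.48) lay within its own range in Venus-low Tfh (10.64 to 11.88). Il18rap in those cells (2.93 to 6.17) lay below its own range in Venus-low Tfh (9.32 to 10.10). Across the 12 arrays the chains had a Pearson r of 0.460 and a Spearman rho of 0.560, against -0.152 for Il1r1 with Il18r1 and 0.625 (Pearson) for Il1r2 with Il18rap, all of them descriptions of arrays that share sets.

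The 5 probe sets with the pattern most like Il18rap were 2 of Fabp5 (Pearson r 0.974 and 0.956 over 12 arrays), a fatty acid binding protein, and 1 each of Ifi30 (0.959), a lysosomal thiol reductase, Cd2bp2 (0.957) and H2az1 (0.952), a histone variant. H2az1 read 13.14 to 13.47 in Venus-high and 13.84 to 14.07 in Venus-low Tfh, a far smaller range than that of Il18rap. These likenesses were weaker than those found for Il1r2, whose 5 genes had 0.993 or more.

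**Figure D3:**
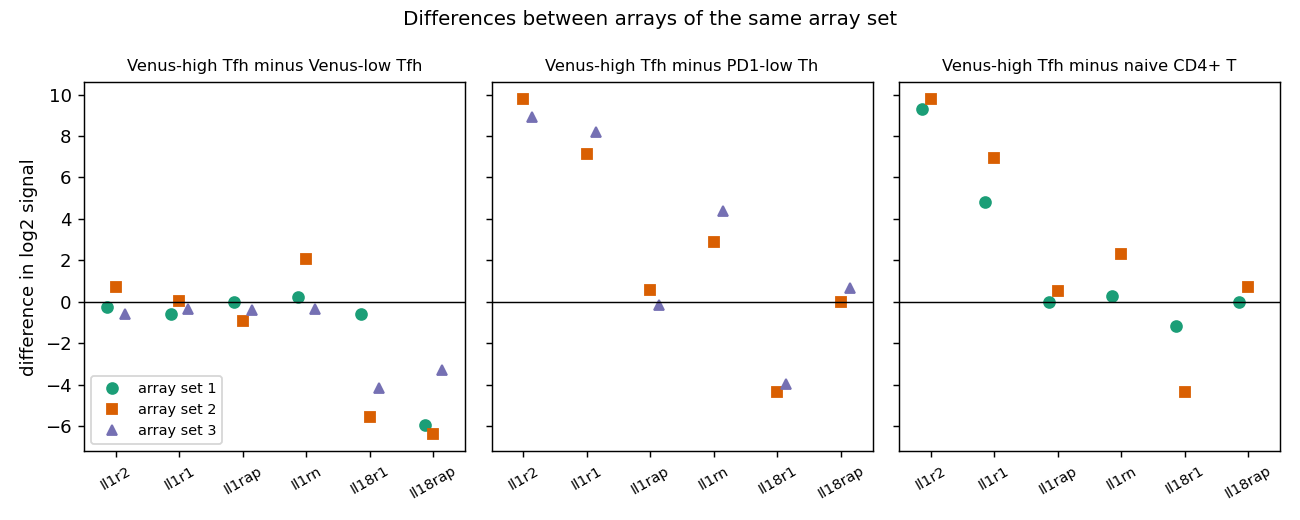
Difference in log2 signal between arrays of the same array set (vertical axis) for the 6 family genes (horizontal axis), with Venus-high Tfh compared with Venus-low Tfh (3 pairs), PD1-low Th (2 pairs) and naive cells (2 pairs). Il18rap falls in all 3 Tfh pairs (-3.28 to -6.40), Il18r1 falls little in set 1 (-0.61) and by more in sets 2 and 3, and Il1r2 and Il1r1 lie near 0 between the Tfh groups.

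Regulatory T cells and cytotoxic cells also carry IL-18 receptors or Il1r2, and their markers were read on the same arrays. Foxp3, the regulator of regulatory T cells, had means of 6.00 in Venus-high and 10.999 in Venus-low Tfh, 11.19 in PD1-intermediate, 11.93 in PD1-low and 9.18 in naive cells. The 4 markers of these cells summed to 34.0 to 37.5 in Venus-high, 40.9 to 47.9 in Venus-low, 47.0 to 47.3 in PD1-intermediate, 44.8 to 50.9 in PD1-low and 30.3 to 33.7 in naive cells. Between the Tfh groups the sum was carried by Foxp3 and by Il2ra, the high-affinity chain of the IL-2 receptor, with means of 4.13 in Venus-high and 9.01 in Venus-low Tfh. The means of Ikzf2 were 13.38 and 13.38 and those of Ctla4 11.95 and 11.77. Foxp3 and Il2ra thus moved with Il18rap and Il18r1 between the Tfh groups, while PD1-low cells, with the highest Foxp3, had Il1r2 at 2.12 and 3.13 and Il18rap at 3.64 and 6.17, and naive cells, with the lowest sum, had Il18r1 at 10.94. The part of regulatory T cells in these results was not tested. Of 5 measured NK, CD8 and gamma delta T cell genes, Ncr1 and Cd8a were below log2 5 on all arrays. Klrd1 had means of 2.25 in Venus-high, 4.86 in Venus-low, 8.25 in PD1-intermediate, 11.15 in PD1-low and 9.59 in naive cells. Eomes and Cd8b1 also had their highest means in PD1-low cells (6.30 and 6.49), where Il18rap read 3.64 and 6.17. The list summed to 11.4 to 13.1 in Venus-high, 13.1 to 18.5 in Venus-low, 22.5 to 24.0 in PD1-intermediate, 26.1 to 31.1 in PD1-low and 19.5 to 22.2 in naive cells. It was lowest in Venus-high Tfh and increased to Venus-low and PD1-intermediate cells, as Il18rap did from Venus-high to Venus-low, and its part in the Il18rap result was not tested.

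The other genes of the pathway were read from a list of ligands, remaining receptors and inhibitors, ligand-processing enzymes, adaptors and kinases, and NF-kB factors with their feedback genes. None of the 9 ligand genes on the array passed the filter. Il1a, Il1b and Il33 stayed at or below 2.36 on every array, and no ligand reached log2 5 on its probe set with the highest mean. Il18 read 3.15 to 4.90 in Venus-low Tfh and 3.19 to 3.28 in PD1-intermediate cells, and it was at or below 2.80 on the 7 other arrays. Below log2 5 the arrays give only an upper bound for these messages. Of the remaining genes 34 passed the filter, each read from its probe set with the highest mean, and 2 of these probe sets, of Il1rl2 and Tnfaip3, were displaced in an array set.

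Between Venus-high and Venus-low Tfh, 0 of these 34 genes were called by limma (0.609% of all probe sets), and their median difference was 0.10 against 0.02 over all probe sets tested. Between Venus-low Tfh and PD1-intermediate cells 0 were called (0.268% overall; medians -0.39 and -0.44). From PD1-low to PD1-intermediate cells 1 rose (2.49% overall; medians 0.28 and 0.27), and between PD1-low and naive cells 0 were called (0.0335% overall; medians 0.41 and 0.33). In Venus-high Tfh against PD1-low cells 2 rose and 1 fell (medians 0.03 and -0.17), and against naive cells 4 rose and 1 fell (medians 0.32 and 0.18), beside 7.62% and 9.52% of all probe sets. At an unadjusted p under 0.05 the list had 1, 3, 6, 3, 6 and 11 genes of 34 in the 6 comparisons in this order, beside 7.42%, 8.31%, 9.63%, 3.93%, 17.2% and 19.1% of all probe sets. The shares called in the list by adjusted p, 3 and 5 of 34, are near 7.62% and 9.52%, and the medians shift with the median of all probe sets.

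With the array set as a term, the counts for the 6 comparisons in the same order were 3, 0, 2, 0, 11 and 13 of 34. The rates over all probe sets were then 11.6%, 3.05%, 9.07%, 0.369%, 28.7% and 34.3%. The 3 genes called between the Tfh groups with this term were Relb, higher by 0.72 ± 0.11 in Venus-high Tfh (limma adjusted p = 0.00992), Zc3h12a, higher by 0.99 ± 0.23 (adjusted p = 0.0368), and Pycard, lower by 0.75 ± 0.12 (adjusted p = 0.0107). Relb is a subunit of NF-kB, Zc3h12a an RNase that limits inflammatory messages and Pycard the adaptor of inflammasomes. With the replicate number as a block over the 6 Tfh arrays, 2 of 34 were called.

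Among the ligand-processing enzymes, Casp1, the protease that matures IL-1 beta and IL-18, followed the CXCR5+ groups. Its means (± SD, same n as above) were 13.64 ± 0.15 in Venus-high Tfh, 13.33 ± 0.23 in Venus-low Tfh, 12.87 ± 0.21 in PD1-intermediate, 10.16 ± 1.26 in PD1-low and 8.27 ± 0.42 in naive cells. The lowest CXCR5+ array read 12.72 and the highest of the other 4 read 11.05. The share of all probe sets with such a gap is not given here. Casp1 rose by 3.48 ± 0.47 in Venus-high Tfh against PD1-low cells (limma adjusted p = 0.00252), a call lost with only the 5 arrays of the 2 groups (adjusted p = 0.0923), and by 5.37 ± 0.47 against naive cells (adjusted p = 1.97e-04). In PD1-intermediate against PD1-low cells it rose by 2.72 ± 0.52 (adjusted p = 0.0326), and that call was lost in 12 of 23 alternatives. Among them were 9 of the 12 that leave out 1 array, all except those without PD1-low replicate 2 or a naive array.

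Casp4, an inflammatory caspase that senses lipopolysaccharide, had means of 12.61 ± 0.61 (SD) in Venus-high, 12.50 ± 0.66 in Venus-low, 12.58 ± 0.13 in PD1-intermediate, 9.05 ± 2.10 in PD1-low and 6.02 ± 1.28 in naive cells. It rose by 6.59 ± 0.89 in Venus-high Tfh against naive cells (limma adjusted p = 0.00187). Against PD1-low cells it rose by 3.56 ± 0.89 (adjusted p = 0.0471), a call lost in 12 of 23 alternatives, including 9 of the 12 that leave out 1 array (all but PD1-low replicate 2 and the naive arrays). Nlrp3, a sensor that activates Casp1, did not pass the filter and was near 2.1 in every group.

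Irak3, a kinase-like inhibitor of signalling from IL-1 receptors, ran the other way. Its means were 8.38 ± 0.81 (SD) in naive, 7.32 ± 0.47 in PD1-low, 6.38 ± 0.80 in PD1-intermediate, 4.76 ± 0.47 in Venus-low and 3.69 ± 0.20 in Venus-high cells. All 3 Venus-high arrays were below log2 5, and Irak3 was there at least 4.99-fold lower than in PD1-low cells (limma adjusted p = 0.00223) and at least 10.4-fold lower than in naive cells (limma adjusted p = 4.39e-04). Both calls held in 23 of 23 alternatives. Myd88, the adaptor of IL-1 and IL-18 receptors, had means between 10.84 and 11.55 in the 5 groups and was not called in any of the 6 comparisons.

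Sigirr, an inhibitory receptor of the family, had group means of 12.05 to 12.65 and was called with the array set as a term alone. It was then higher by 0.51 ± 0.11 in Venus-high Tfh than in naive cells (limma adjusted p = 0.0112), where 34.3% of all probe sets were called. Il1rl2, which lies in the same gene cluster, was read by a displaced probe set that ran from 2.12 to 10.77 inside Venus-high Tfh, and its groups are not compared. Ube2v1, a partner of the ubiquitin enzyme that activates NF-kB signalling, rose by 1.07 ± 0.23 in Venus-high Tfh against naive cells (limma adjusted p = 0.0208). Relb rose by 1.85 ± 0.47 in the same comparison (limma adjusted p = 0.0415). The Ube2v1 call was lost on leaving out any of 6 single arrays (Venus-high 1 and 3, both PD1-intermediate, both naive), and the Relb call on leaving out any of 9 (all except Venus-high 1, Venus-low 1 and Venus-low 3).

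**Figure D4:**
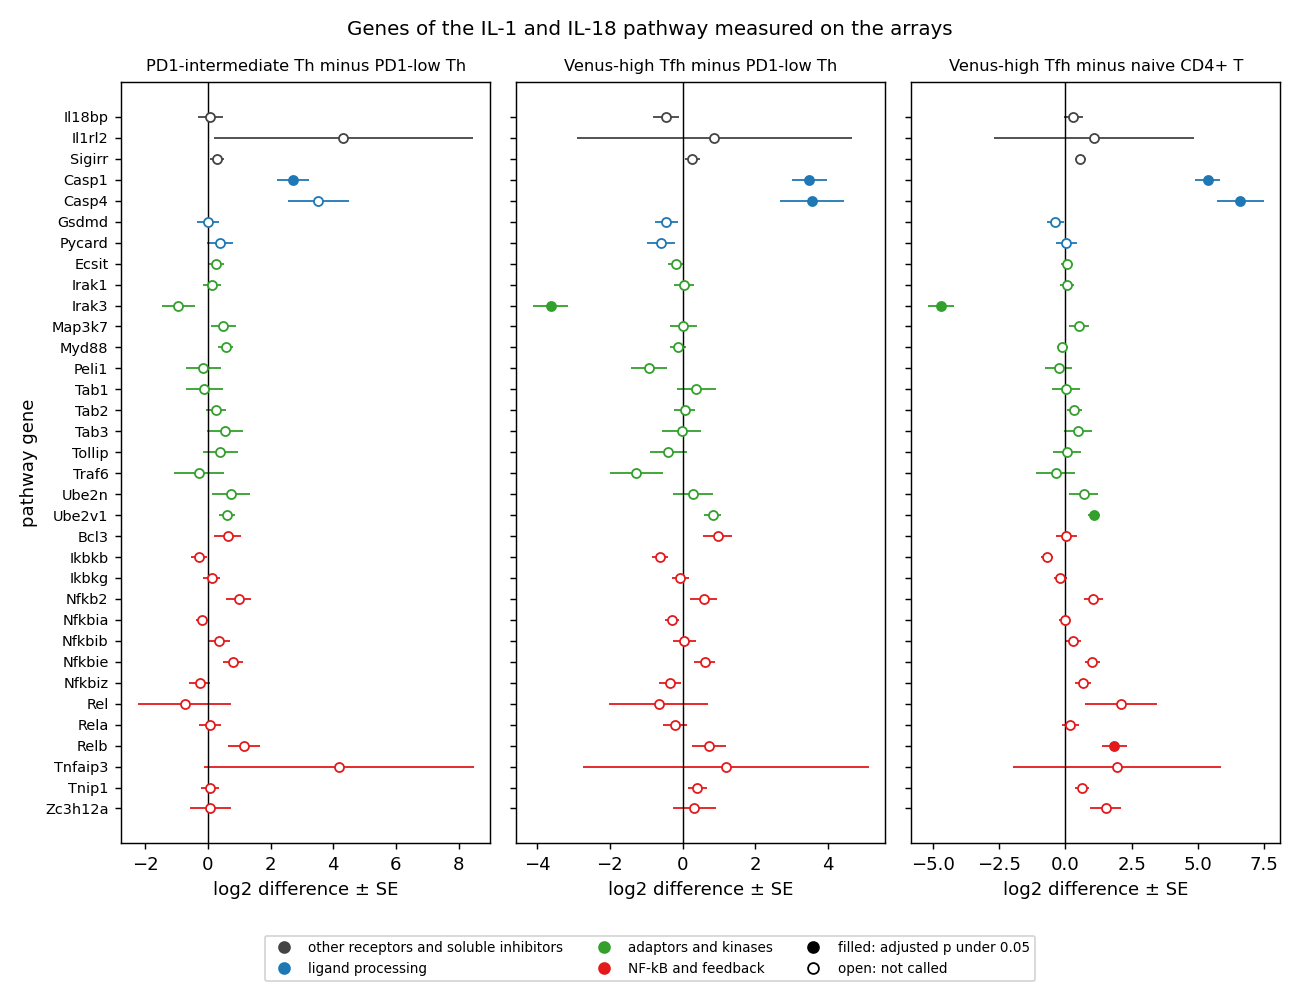
Log2 difference ± SE (horizontal axis) of the 34 pathway genes that passed the filter (vertical axis, coloured by list) in 3 comparisons from the fit without an array set term; filled points have an adjusted p under 0.05. Casp1 and Casp4 lie to the right and Irak3 to the left in both Venus-high comparisons, while most other genes lie within 1 log2 unit of 0.

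Regulators and cytokines that go with IL-1 and IL-18 receptors in T helper subsets were read last, 12 of 16 on the array having passed the filter. Il17a, Il12rb2, Il5 and Il13 did not pass it. In the 6 comparisons 0, 0, 2, 0, 2 and 8 rose and 1, 0, 0, 0, 1 and 1 fell, with 2, 1, 4, 8, 6 and 10 at an unadjusted p under 0.05. Over all probe sets 0.609%, 0.268%, 2.49%, 0.0335%, 7.62% and 9.52% were called in these comparisons, and 7.42%, 8.31%, 9.63%, 3.93%, 17.2% and 19.1% had an unadjusted p under 0.05. The 12 genes had median differences of -0.25, -0.26, 0.84, 2.69, 0.94 and 3.94, against -0.44 to 0.33 over all probe sets. Rora, a transcription factor of Th17 cells, had means of 10.57 in Venus-high, 10.93 in Venus-low, 11.26 in PD1-intermediate, 7.44 in PD1-low and 4.81 in naive cells. It rose by 3.82 ± 0.67 from PD1-low to PD1-intermediate cells (limma adjusted p = 0.0221), between which Il1r1 and Il1r2 did not overlap either. Il12rb1, a chain of the IL-12 and IL-23 receptors, rose there by 2.87 ± 0.60 (limma adjusted p = 0.0492), close to the threshold. In this comparison 445 probe sets were called, and 41 with only the arrays of the 2 groups. Whether the Rora and Il12rb1 calls hold in the alternatives is not given here.

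Ifng, the Th1 cytokine that IL-18 is known to induce, did not follow Il18rap. Its means were 8.95 in Venus-high and 8.40 in Venus-low Tfh, 5.28 in PD1-intermediate, 2.70 in PD1-low and 2.83 in naive cells, and it was at least 15.5-fold higher in Venus-high Tfh than in PD1-low cells (limma adjusted p = 0.00898). Venus-high Tfh thus had low Il18rap (3.38 to 6.82) beside Ifng values that overlapped with those of Venus-low Tfh. Ifng read 7.43 to 11.21 in Venus-high and 7.01 to 9.70 in Venus-low Tfh and was not called between them. Other Th1-linked genes of the list differed from Ifng. Means in Venus-high and Venus-low Tfh were 11.10 and 12.46 for Cxcr3, 3.45 and 4.98 for Tbx21, and 7.94 and 8.23 for Il12rb1. These were lower in Venus-high Tfh, as Il18rap was, while Stat4 (13.66 and 13.29) was higher. None of them was called between the Tfh groups. A link between Il18rap and Ifng or these genes was not tested. Ccr6, a chemokine receptor of Th17 cells, had means of 7.90 in Venus-high, 11.68 in Venus-low, 12.33 in PD1-intermediate, 6.98 in PD1-low and 2.63 in naive cells. Its difference of -3.77 ± 0.98 between the Tfh groups was not called (limma adjusted p = 0.207). With the array set as a term, where 11.6% of all probe sets were called, the limma adjusted p was 0.0147. Foxp3 fell by 5.003 ± 0.47 in Venus-high against Venus-low Tfh (limma adjusted p = 0.00368), the 1 gene of this list called between them.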

How the data were processed

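Total RNA (20 ng, amplified) from 12 pools of sorted cells was hybridized to Affymetrix mouse arrays, per the labels. The values are log2 signals per probe set that the authors deposited; GCRMA is named in the submitters' processing notes, without a version, and which arrays were normalized together is not given in the sources used here. The annotation gave 34958 of 45101 probe sets 1 gene symbol, 932 several and 9211 none. Probe sets reaching log2 5 on at least 2 arrays (17901) entered 1 limma 3.58.1 fit (R 4.3.3) of 5 groups on 12 arrays (7 residual degrees of freedom), without a batch term, with 6 comparisons, 2-sided tests and Benjamini-Hochberg adjustment over all of them, called at an adjusted p under 0.05. Differences are log2, first group minus second, ± SE. A gene was read from its probe set with the highest mean. If all arrays of a group read under log2 5, folds are bounds, from the brighter group's mean over log2 5.

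Members, lists and tests were chosen with earlier results of these data known. Named were all members, pathway genes past the threshold (up to 4 per list and comparison) and the 5 probe sets most like each of Il1r1, Il1r2 and Il18rap; Nlrp3, Myd88, Sigirr, Il1rl2, Zc3h12a, Pycard, Ccr6 and the example genes of the lists were named after their values were seen. Pools are the replicates, nothing says that they came from separate experiments, and p-values measure the spread between them; their number limits the precision. Array sets are 3 clusters of the arrays' quantiles. Same-numbered Tfh arrays deviated together (correlations 0.937, 0.967 and 0.940), so the numbers pair the Tfh groups; they also are the array sets. Alternatives changed the filter, floor, normalization, variance model, arrays fitted, replicate block, array set term and probe set choice, and left out each array; leaving out displaced probe sets was added after seeing the data. The fit was also run on simulated data, and no result here rests on that run. Figures were drawn with matplotlib 3.10.9 in Python 3.11.15.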

Additional observations from a re-analysis of the deposited data

How the results depend on the processing

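With 3 arrays a group at most, no group was large enough to look for single outlying arrays, and dim probe sets give bounds only. With values under log2 5 set to 5, PD1-intermediate minus PD1-low was 6.44 for Il1r2 and 5.71 for Il1r1, as the floor itself shortens such differences. With the array set as a term, Il18r1 passed the threshold at -3.45 (Venus-high minus Venus-low), -3.38 (minus PD1-low) and -2.99 (minus naive), also without displaced probe sets, and Il1rn at 3.39 (Venus-high minus PD1-low). Leaving out 1 array in turn, these Il18r1 differences ranged from -4.48 to -2.62, from -4.15 to -2.29 and from -4.02 to -2.16.

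Counts of the 34 pathway genes moved as follows. PD1-intermediate minus PD1-low (1) gave 0 with no filter, with only the 2 groups' arrays and with the replicate block over 12 arrays, 2 with the array set term, 3 with it and without displaced probe sets, and 0 to 2 without single arrays. Venus-high minus PD1-low (3) gave 5 with quantile normalization or a trended variance, 1 with the 2 groups' arrays and 11 with the set term. Venus-high minus naive (5) gave 8 with a trended variance, 3 with the 2 groups' arrays, 13 with the set term and as few as 3 without single arrays. Venus-high minus Venus-low (0) gave 3 with the set term and 2 with the replicate block over the 6 paired arrays. Venus-low minus PD1-intermediate (0) gave 3 with the replicate block over 12 arrays, whose numbers pair only the Tfh groups, and 1 with the set term without displaced probe sets. The cause of these moves was not tested.

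Over all probe sets, the counts in the 6 comparisons were 109, 48, 445, 6, 1364 and 1704, with lows of 0, 0, 41, 0, 403 and 642, each with only the 2 groups' arrays, and highs of 2270, 3895, 1740, 72, 5213 and 6191. In the same replicate block over 12 arrays, Il1rap and Il1rn were called for Venus-low minus PD1-intermediate, at -2.50 (limma adjusted p = 0.0400) and -3.42 (limma adjusted p = 0.0394). The direction was the opposite within set 3 (0.23 and 1.54) and with the array set as a term (0.40 and 0.55, neither called). The replicate block changed no other family call, while the array set term changed those of Il18r1 and Il1rn given above.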
